A study of Mus musculus with 5 samples.

Results

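Ly6a and Ly6c2 are 2 of the 2926 mouse genes scored in single CD3+ T cells of the injured brain hemisphere, and both were taken by their gene symbol. They were singled out because, in an earlier look at these data, they lay on opposite sides of the CD4 and CD8 coreceptor split. That split is therefore described here without a test. Both genes belong to the Ly6 family, small cysteine-rich proteins held on the outer cell surface by a glycolipid (GPI) anchor and encoded in a cluster on mouse chromosome 15. Ly6a encodes Sca-1, a marker of blood stem cells that is also carried by T cells and is raised by interferons and by T cell activation. Ly6c2 encodes Ly6C, which marks inflammatory monocytes and is also found on memory-type CD8 T cells in the mouse. CD4 and CD8 are the coreceptors of helper and cytotoxic T cells, and CD8 is a pair of chains encoded by Cd8a and Cd8b1.

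The cells came from wildtype C57BL/6 mice killed 14 days after a photothrombotic stroke, an infarct made by lighting a dye in cortical vessels. The trained group (3 samples) had running wheels from day 2, and the untrained group (2 samples) had none. Cells with values filled 17.2%, 32.3% and 43.8% of 384 wells in trained samples 1 to 3 and 37.5% and 49.5% in untrained samples 1 and 2, 692 cells in all. Whether each sample is 1 animal is not given in the labels, so a p-value here covers the spread between these samples alone, and that spread may be technical. The deposited values are scores, in which 0 lies near a gene's average and 72.7% of all values are negative. They carry no read counts, so the depth is unknown, no fold change can be given, and levels are not compared between genes. Untrained sample 2 stood apart. A total of 1632 of its rows had a mean of 0 within 1e-06, against 0 rows in each other sample, and its median SD between cells was 0.728, against 0.371 to 0.515 in the other samples. Its highest score was 2.52 for each of Ly6a, Ly6c2, Cd4, Cd8a and Cd8b1, while in no other sample did these genes share a highest score. Ly6e reached 2.59 in that sample and the highest score over all its rows was 2.64, so 2.52 was not a ceiling for every row. Whether the scores of these genes were capped there was not tested. A cap would bear on the means and correlations of that sample. Whether the samples were adjusted to one another before deposit is not given in the sources used here, and their values may not be independent.

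Cells were classed by coreceptor scores cut at 0. CD8-gated cells (23% of all cells) scored above 0 on the mean of the 2 CD8 genes and no higher than 0 on Cd4. CD4-gated cells (21.1%) had the reverse. A further 57 cells lay above 0 for both and 330 cells for neither. Since scores are relative, a gated cell lies in a range of values and need not hold a detected transcript. The 10 measured T cell markers averaged 0.184 in CD8-gated cells (0.0661 to 0.255 over samples) and 0.181 in CD4-gated cells (0.0785 to 0.400). The 8 measured monocyte and macrophage markers averaged -0.188 in CD8-gated cells (-0.377 to -0.0886) and -0.0303 in CD4-gated cells (-0.106 to 0.103). Cells with a mean above 1 over 7 myeloid genes, called myeloid-like here, numbered 51, of which 41 were in untrained sample 2. They made up 4 of the CD8-gated cells, 8 of the CD4-gated cells and 39 of the cells below both gates.

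Ly6c2 has a near-identical neighbour, Ly6c1, which has no row of its own in the deposited values. The coding sequences are shown to make plain how little separates the copies. In the mouse build GRCm38 (GENCODE M21), Ly6a lies on chromosome 15 at 74994877 to 74998031, Ly6c1 at 75044018 to 75048830 and Ly6c2 at 75108158 to 75111970, all on the minus strand. The build behind the deposited values is not given in the sources used here, and these positions place the genes only in the reference. The first 300 coding bases of each follow, from the start codon and without introns. Capitals in Ly6c1 and Ly6c2 mark the 7 of these bases at which they differ from each other, and capitals in Ly6a mark the 70 that differ from Ly6c2 or have no partner in it.
Ly6c1: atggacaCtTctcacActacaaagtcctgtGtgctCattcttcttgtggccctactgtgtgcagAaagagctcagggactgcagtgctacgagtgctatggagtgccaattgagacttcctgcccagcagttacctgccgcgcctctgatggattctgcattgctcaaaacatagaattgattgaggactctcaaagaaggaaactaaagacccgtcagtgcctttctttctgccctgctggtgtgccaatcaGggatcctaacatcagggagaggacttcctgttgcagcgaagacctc
Ly6c2: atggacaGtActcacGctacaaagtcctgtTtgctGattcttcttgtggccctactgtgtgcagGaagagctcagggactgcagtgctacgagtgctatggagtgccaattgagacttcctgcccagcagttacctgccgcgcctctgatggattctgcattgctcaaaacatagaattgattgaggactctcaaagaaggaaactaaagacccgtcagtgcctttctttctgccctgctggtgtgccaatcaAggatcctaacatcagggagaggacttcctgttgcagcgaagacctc
Ly6a: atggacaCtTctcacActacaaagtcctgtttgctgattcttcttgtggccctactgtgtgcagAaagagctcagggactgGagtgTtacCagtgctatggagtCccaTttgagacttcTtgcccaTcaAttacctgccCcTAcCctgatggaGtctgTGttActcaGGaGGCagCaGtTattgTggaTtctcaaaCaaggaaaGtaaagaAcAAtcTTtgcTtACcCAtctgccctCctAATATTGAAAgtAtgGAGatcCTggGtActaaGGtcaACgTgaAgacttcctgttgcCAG
Over the whole coding sequence Ly6c1 and Ly6c2 shared 97.7% of 393 bases, with 9 differences, and 93.5% of aligned positions over the last 300 bases of their transcripts, the end that a 3′ tag method reads. Ly6a and Ly6c2 shared 81.6% of aligned coding positions and 81.1% over the last 300 bases. How the authors counted reads that match more than 1 gene is not given in the sources used here. The row named Ly6c2 may thus hold reads of Ly6c1, and its values are uncertain in that respect. Ly6e, the other measured gene of the family, shared 54.1% of aligned coding positions with Ly6a and 50.9% with Ly6c2.

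Ly6a scored higher in CD4-gated than in CD8-gated cells in every sample. In CD8-gated cells the mean score of Ly6a was 0.0133, 0.116 and 0.0318 in trained samples 1 to 3 and -0.0153 and 0.115 in untrained samples 1 and 2. In CD4-gated cells it was 0.500, 0.325 and 0.426 in trained samples and 0.119 and 1.04 in untrained samples. The 5 CD4-gated values all lay above the 5 CD8-gated values. The difference, CD8-gated minus CD4-gated, was -0.431 ± 0.312 (SD, n = 5), with single samples between -0.930 and -0.134. Untrained sample 2 gave the widest difference and untrained sample 1 the narrowest, so the untrained samples span the range of all 5.

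Ly6c2 went the other way in every sample. In CD8-gated cells its mean score was 0.150, 0.371 and 0.223 in trained samples and 0.0838 and 0.246 in untrained samples. In CD4-gated cells it was -0.374, -0.139 and -0.181 in trained samples and -0.0561 and -0.220 in untrained samples. All 5 CD8-gated values were positive and all 5 CD4-gated values were negative. The difference was 0.409 ± 0.157 (SD, n = 5), from 0.140 in untrained sample 1 to 0.524 in trained sample 1. Over 2923 genes, leaving out the coreceptor genes, 4.45% had a difference above 0 in all 5 samples and 9.37% had it below 0 in all 5. Ly6a ranked lowest of the 2923 by mean difference and Ly6c2 ranked 3 from the top. Both genes were chosen on this contrast, so these ranks are a description. Ly6e, which encodes another GPI-anchored member and was not chosen by the split, had a mean difference of -0.254 ± 0.30 (SD, n = 5). It was below 0 in all 5 samples but was -0.00189 in trained sample 3 and -0.658 in untrained sample 2.

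**Figure D1:**
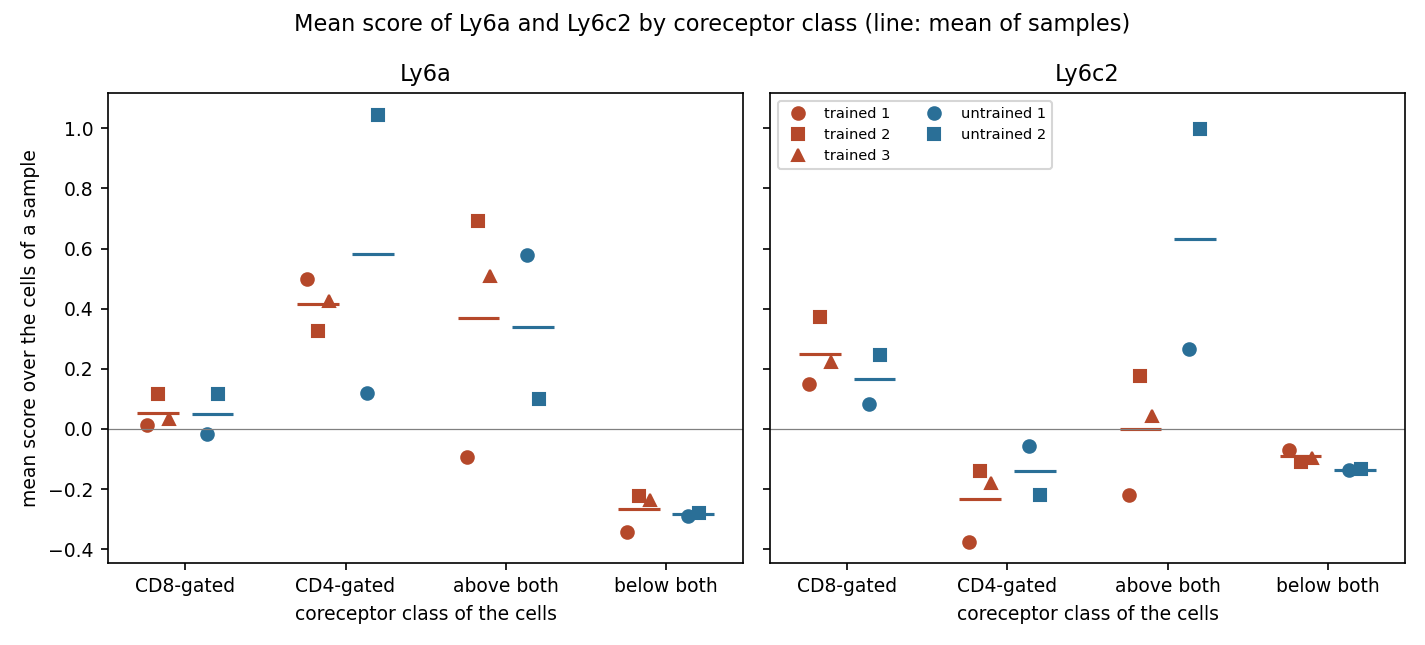
Mean score (y axis, no unit) of Ly6a and Ly6c2 over the cells of each sample, by coreceptor class (x axis). Points are samples, trained in red left of untrained in blue, and lines are means of samples. For Ly6a every CD4-gated point lies above every CD8-gated point, and for Ly6c2 the order is reversed.

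**Figure D2:**
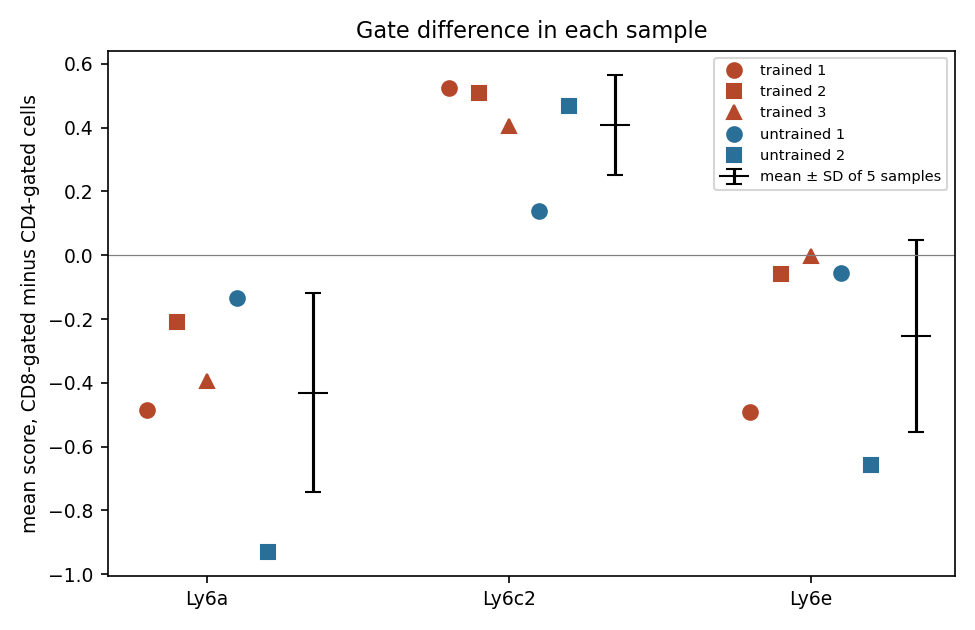
Difference of mean scores, CD8-gated minus CD4-gated cells (y axis), in each of the 5 samples for Ly6a, Ly6c2 and Ly6e. Bars give the mean ± SD of 5 samples, -0.431 ± 0.312 for Ly6a and 0.409 ± 0.157 for Ly6c2. All Ly6a points are below 0 and all Ly6c2 points above 0.

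The opposite signs held without cells high in myeloid genes and with the cell-wide level taken out. Without the 51 myeloid-like cells the difference was -0.521 for Ly6a and 0.404 for Ly6c2. Among cells whose mean over the 10 T cell markers was above 0 (T cell marker cells), it was -0.622 for Ly6a and 0.559 for Ly6c2. With each cell's mean over all genes taken out by regression, it was -0.371 for Ly6a and 0.444 for Ly6c2, again with the same sign in all 5 samples. With the gates moved to 0.25, 1 of 5 samples had a Ly6a difference above 0 (0.0611), while Ly6c2 stayed above 0 in all 5. At the edge of the CD8 gate, the 50 cells between 0 and 0.25 had a mean Ly6c2 score of 0.117, against -0.0140 in the 94 cells as far below it. The medians were -0.214 inside and -0.200 outside, so the higher mean was not seen in the middle cell. Ly6a at that edge had a mean of -0.199 inside and -0.255 outside. At the edge of the CD4 gate, the 34 cells just inside had a mean Ly6a score of 0.143, against -0.213 in the 59 cells just outside, with medians of -0.131 inside and -0.279 outside. These cells lie in the same windows on either side of each cut and are given without a test.

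Cells outside the gates were described in the same way. Below both gates, Ly6a was lowest of the 4 classes in every sample, at -0.342, -0.223 and -0.237 in trained and -0.288 and -0.280 in untrained samples. Ly6c2 was below 0 there in all 5 samples, at -0.0698, -0.108 and -0.0951 in trained and -0.137 and -0.134 in untrained samples. Above both gates Ly6a ranged from -0.0925 to 0.693 over samples and Ly6c2 from -0.220 to 0.999. Some of those samples held 2 to 8 such cells, and the SD over the 5 samples was 0.336 for Ly6a and 0.455 for Ly6c2. By mean over samples Ly6a ran from below both (-0.274), through CD8-gated (0.0521) and above both (0.357), to CD4-gated (0.483). Below both and CD8-gated did not overlap over samples, while the other neighbours in that order did. Ly6c2 ran from CD4-gated (-0.194), through below both (-0.109) and CD8-gated (0.215), to above both (0.253). Here below both and CD8-gated were again the pair without overlap, and the other neighbours overlapped. The mean over all mouse genes parted these classes too. It ran from -0.120 to -0.0635 over samples below both gates and from -0.0121 to 0.0560 in CD8-gated cells. The share of all genes without overlap is not given here, so this order is not read as particular to the members.

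Along the coreceptor scores the pair split on Cd4 more than on CD8. The cells of each sample were cut into 5 equal bins by their Cd4 score. Ly6a averaged -0.194, -0.318, -0.0441, 0.181 and 0.451 from the lowest to the highest bin, while the mean over all genes moved only between -0.0761 and 0.0564. Ly6c2 averaged -0.0630, -0.0550, 0.0790, 0.00786 and -0.126 over the same bins, lowest where Ly6a was highest. In the highest Cd4 bin all 5 samples were above 0 for Ly6a (0.339 to 0.738) and below 0 for Ly6c2 (-0.277 to -0.0303). By the mean of Cd8a and Cd8b1, Ly6c2 averaged 0.259 ± 0.210 (SD, n = 5) in the highest bin and Ly6a 0.157 ± 0.181, so both genes were above 0 there. Trained sample 1 was the exception, with -0.0394 for Ly6c2 and -0.0417 for Ly6a in that bin.

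**Figure D3:**
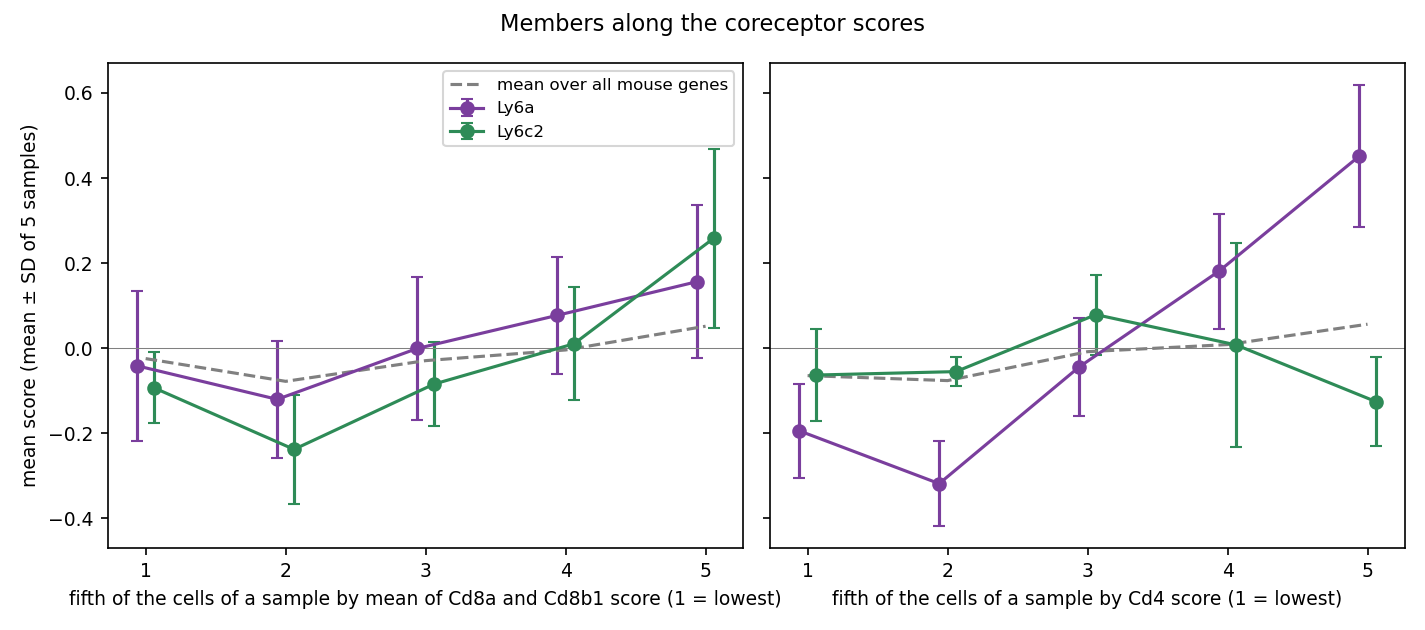
Mean score (y axis) of Ly6a and Ly6c2 in 5 bins of cells ordered by the mean of Cd8a and Cd8b1 (left) or by Cd4 (right). Points and bars are the mean ± SD of 5 samples and the dashed line is the mean over all mouse genes. Ly6a reaches 0.451 in the highest Cd4 bin, where Ly6c2 is at -0.126.

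Correlations across cells with the same coreceptor scores restate the choice of the 2 genes and are given as values. They are Pearson r within a sample, over its 66 to 190 cells, averaged over the 5 samples. Cells of a sample share a plate, and genes of a cell share its depth, which is unknown, so r is a description. Ly6a had r = 0.357 with Cd4 (0.279 to 0.491 over samples), 0.0904 with Cd8a and 0.147 with Cd8b1. Ly6c2 had r = 0.257 with Cd8a (0.162 to 0.304) and 0.251 with Cd8b1 (0.103 to 0.353), both above 0 in all 5 samples, and -0.0626 with Cd4 (-0.222 to 0.106). Given the cell's mean score over all genes, the partial r of Ly6c2 with Cd4 was -0.215 and below 0 in all 5 samples. That of Ly6a with Cd4 was 0.248 and above 0 in all 5. Within a gate they were lower on average. Among CD4-gated cells the r of Ly6a with Cd4 was 0.10 ± 0.260 (SD, n = 5), and among CD8-gated cells that of Ly6c2 with Cd8a was 0.105 ± 0.271. Within the 330 cells below both gates, the r of Ly6a with Cd4 was 0.162 and that of Ly6c2 with Cd8a was -0.0269.

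Although they parted by coreceptor, the 2 genes were weakly positively correlated with each other across all cells. Their r was 0.248, 0.137 and 0.0815 in trained samples and 0.183 and 0.155 in untrained samples, a mean of 0.161. It was above 0 in every sample, also among CD8-gated cells (mean 0.213) and among CD4-gated cells (mean 0.254). Both genes followed the cell's mean score over all genes, Ly6a with r = 0.436 (0.357 to 0.501) and Ly6c2 with r = 0.368 (0.202 to 0.442). With that mean held fixed, their partial r was -0.00691, with 3 of 5 samples above 0. Among T cell marker cells r was -0.0515, -0.194 and -0.132 in trained samples and -0.0435 and -0.100 in untrained samples, below 0 in all 5. Spike-in RNAs, added in the same amount to each well, had r = -0.0560 with Ly6a and -0.0598 with Ly6c2 on average.

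**Figure D4:**
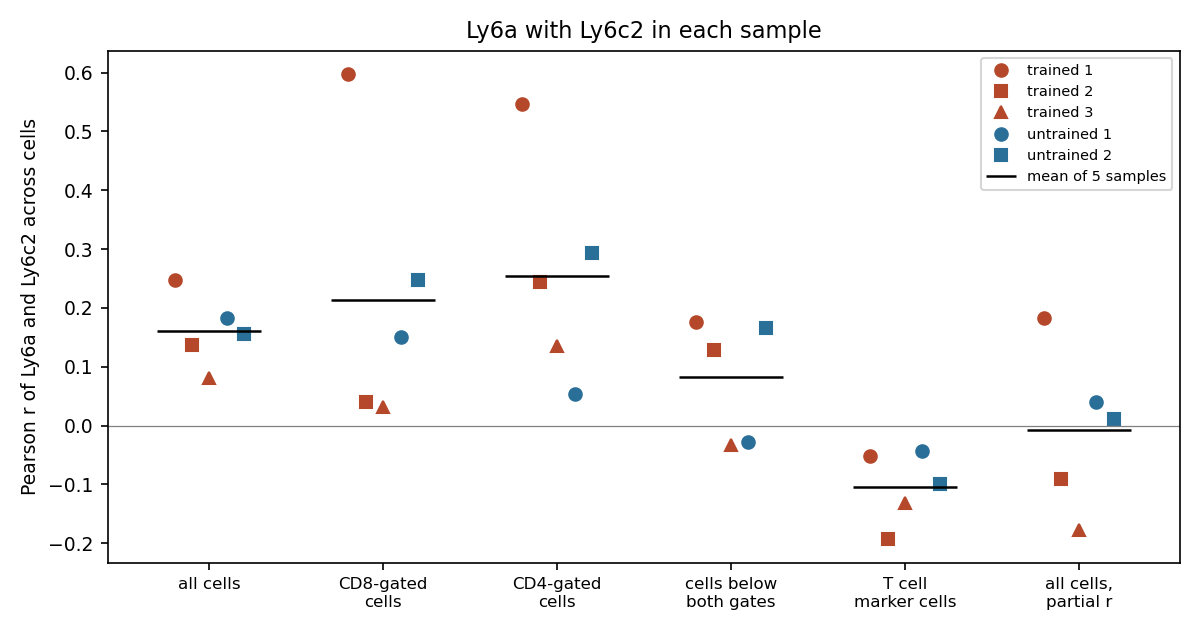
Pearson r of Ly6a and Ly6c2 across cells (y axis) in each sample, for all cells, for subsets of cells and as partial r given the cell's mean score. Points are samples, trained in red left of untrained in blue, and lines are means of 5 samples. The r lies above 0 in all samples over all cells and below 0 in all samples among T cell marker cells.

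Counting cells by sign showed the split and the overlap together. Of 692 cells, 88 (12.7%, 95% Wilson interval 10.4 to 15.4) scored above 0 for both genes, 18.9% (16.2 to 22.0) for Ly6a alone and 92 (13.3%, 11 to 16.0) for Ly6c2 alone. These intervals cover counting error only. Among CD8-gated cells, 24 (15.1%, 10.4 to 21.5) were above 0 for Ly6a alone and 37 (23.3%, 17.4 to 30.4) for Ly6c2 alone. Among CD4-gated cells, 59 (40.4%, 32.8 to 48.5) were above 0 for Ly6a alone and 8 (5.48%, 2.80 to 10.4) for Ly6c2 alone. Ly6a-alone cells outnumbered Ly6c2-alone cells among CD4-gated cells in all 5 samples, from 9 against 5 cells in untrained sample 1 to 17 against 0 in untrained sample 2. Among CD8-gated cells Ly6c2-alone cells were the more numerous in 4 of 5 samples, and untrained sample 2 had 6 with Ly6a alone and 3 with Ly6c2 alone.

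Of the 10 leading partners of Ly6a across cells, 6 were on the list of interferon-stimulated genes. That list holds 69 of the 2926 mouse genes measured. The highest r was with Ifi27l2a, an interferon-inducible gene, at 0.526, 0.431 and 0.557 in trained samples and 0.480 and 0.592 in untrained samples. All 5 samples lay above 0.4. Next came H2-K1, a class I antigen-presenting molecule (mean r 0.472), Shisa5 (0.459), the actin regulator Coro1a (0.430), Ms4a6b (0.424) and the actin-binding thymosin Tmsb10 (0.424). B2m, the light chain of class I molecules, had 0.416, Tap2, which pumps peptides to them, 0.409 and the Schlafen gene Slfn1 0.402. Among the 5 lowest r were those with A630089N07Rik (-0.351), Gm10785 (-0.344), the noncoding RNA Kcnq1ot1 (-0.342) and Gm17821 (-0.335). The partial r of the 5, given the cell's mean score, lay between 0.00515 and 0.0182. Which genes led depended on the cells: 3 of the 10 leading genes were again among the leading 10 in CD8-gated cells alone, 6 in CD4-gated cells and 1 in cells below both gates.

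As a list, 63 of the 69 measured interferon-stimulated genes (90 listed) had an r with Ly6a above 0 in all 5 samples, with a median of 0.263, and 2 had it below 0 in all 5. Over all 2925 genes, 58.7% were above and 4.89% below 0 in all 5, and the median was 0.130. Given the cell's mean score, 36 of the 69 were above 0 in all 5 samples and 0 below, with a median of 0.133. Over all genes 7.01% were then above and 7.62% below 0 in all 5, and the median was -0.00335. Ifi27l2a (partial r 0.406), Slfn1 (0.289) and Dtx3l (0.274), which acts in ubiquitin tagging, were near the top of the partial ranking, and 8 of its 10 leading genes were on the list. Eif2ak2, the interferon-induced kinase that senses double-stranded RNA, and Slfn8 were below 0 in all 5 samples (r = -0.206 and -0.200), with partial r of 0.0525 and 0.0592. The lowest partial r of Ly6a were with Fcer1g (-0.256) and Tyrobp (-0.227), adaptors of NK and myeloid cells, Rgs10 (-0.224), Cyth4 (-0.209) and the chemokine gene Xcl1 (-0.205). Across all cells the r of Ly6a with the mean of the myeloid markers was 0.0392, from -0.226 in untrained sample 2 to 0.243 in untrained sample 1.

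The start regions of the Ly6a partners were searched for motifs of interferon signalling, because 6 of the leading 10 were on the interferon list. The interferon-stimulated response element was written GAAANNGAAA and the gamma-activated site TTCNNNGAA, on both strands, in RefSeq windows (GRCm38.p6) of 250 bases before to 50 after each start. Of the 10 leading Ly6a partners 7 had a window. The response element was found in 2 of the 7, B2m and Shisa5, against 3.99% of 27025 genes, and the gamma-activated site in 1 of the 7, Shisa5, against 9.55%. A gene can have more than 1 window, and these 7 had 15. By window the shares were 13.3% against 3.44% for the response element and 6.67% against 8.30% for the gamma-activated site. Of the 10 leading Ly6c2 partners 7 had a window, and 1 held the response element (Rpl38) and 1 the gamma-activated site (Nkg7). The B2m window is on chromosome 2 at 122147528 to 122147577 and the Shisa5 window on chromosome 9 at 109054878 to 109054915, both on the plus strand, with the response element in capitals.
B2m: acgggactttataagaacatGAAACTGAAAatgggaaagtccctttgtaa
Shisa5: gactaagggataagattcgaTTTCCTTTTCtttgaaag
In B2m the match began at -139 relative to the start and in Shisa5 at 32, on the opposite strand, overlapping the gamma-activated site. A match is a run of letters and not a shown binding site, and counts of 7 genes carry no comparison.

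Of the 10 leading partners of Ly6c2 across cells, 8 were ribosomal protein genes and 1 was on the cytotoxic and type 1 list. Of all 2926 mouse genes, 69 were ribosomal protein genes and 23 were on that list. Ly6c2 had its highest r with Tmsb10 (mean 0.452), the only gene among the leading 10 of both members. Nkg7, a granule membrane protein of cytotoxic lymphocytes, had r = 0.338, 0.398 and 0.508 in trained samples and 0.412 and 0.550 in untrained samples. The ribosomal protein genes ran from Rps3 (0.435) to Rps20 (0.419). All 69 measured Rpl and Rps genes had a median r of 0.364 with Ly6c2 and of 0.249 with Ly6a, and 64 were above 0 in all 5 samples with each member, against 43.2% of all genes with Ly6c2 and 58.7% with Ly6a. Given the cell's mean score, the median was 0.167 with Ly6c2, with 40 of 69 above 0 in all 5, and -0.0625 with Ly6a, with 1 of 69, against 7.01% of all genes with each member. The 5 lowest r were with A630089N07Rik (-0.287), Gm10785 (-0.286), Kcnq1ot1 (-0.285), Aplf (-0.283) and A130077B15Rik (-0.279), 3 of them also among the lowest for Ly6a. In CD8-gated cells alone 4 of the 10 leading genes of Ly6c2 were again among the leading 10, in CD4-gated cells 2, and without trained sample 1, the smallest, 6.

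Of the 23 measured genes of the cytotoxic and type 1 list (42 listed), 20 had an r with Ly6c2 above 0 in all 5 samples, with a median of 0.220. Over all 2925 genes 43.2% were above and 5.33% below 0 in all 5, with a median of 0.108. Given the cell's mean score, 11 of the 23 were above 0 in all 5 and 1 below, with a median of 0.118, against 7.01% of all genes above and 10.1% below. Nkg7 (partial r 0.293), the activating receptor gene Klrk1 (0.284), Xcl1 (0.254), the cathepsin Ctsw (0.226) and the chemokine gene Ccl5 (0.219) were above 0 here. Lamp1, a lysosome membrane protein, was at -0.160. With Ly6a the same list gave 14 of 23 above 0 in all 5 samples and a median r of 0.138, near the 58.7% and 0.130 of all genes. Its partial r with Ly6a was above 0 in all 5 samples for 2 and below 0 for 5, against 7.01% and 7.62% of all genes. The lowest partial r of Ly6c2 over all genes were with the tetraspanin Cd9 (-0.220), Cd4 (-0.215), the lysosomal Psap (-0.210), Itm2b (-0.210) and the early-response factor Egr1 (-0.209). The r of Ly6c2 with the mean of the myeloid markers was -0.0412, from -0.188 to 0.0642, and it was below 0 in 3 of 5 samples.

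Set against each other gene by gene, 10.5% of 2924 genes had a higher r with Ly6a than with Ly6c2 in all 5 samples, and 4.45% had a higher r with Ly6c2. In the interferon list 23 of 69 had the higher r with Ly6a and 0 with Ly6c2. In the cytotoxic and type 1 list 1 of 23 had the higher r with Ly6a and 6 with Ly6c2. In the list of helper and regulatory genes 6 of 10 had the higher r with Ly6a and 1 with Ly6c2. Both members were chosen on the coreceptor split, so the counts for the cytotoxic and helper lists across all cells may restate that choice. Within CD4-gated cells the median r of the cytotoxic list was 0.125 with Ly6a and 0.118 with Ly6c2. Within CD8-gated cells it was 0.141 and 0.223. These r share the same cells, and they are counts beside a background, with no test.

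**Figure D5:**
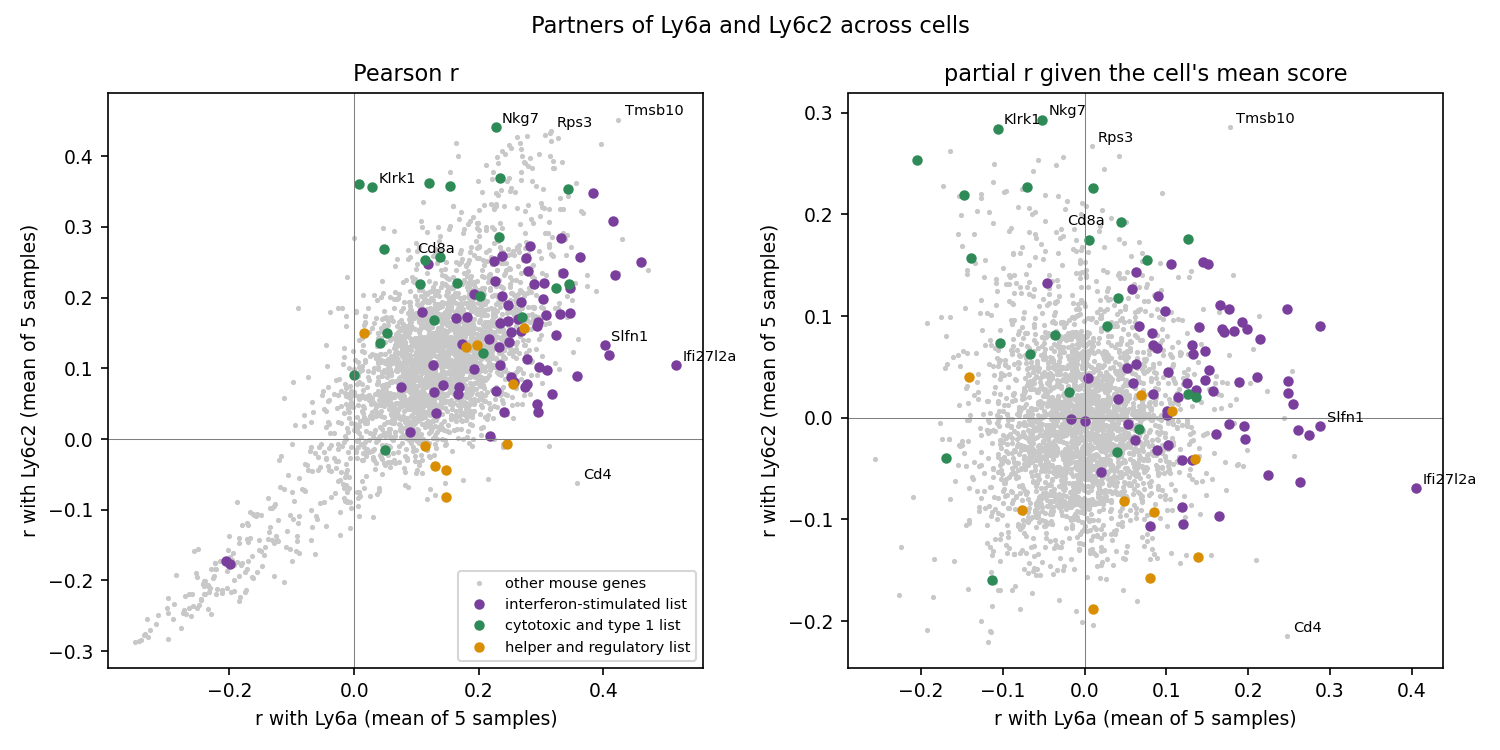
Each point is a gene, placed by its r with Ly6a (x axis) and with Ly6c2 (y axis), as means of 5 samples. The left panel gives Pearson r and the right panel partial r given the cell's mean score. Most genes lie along a shared diagonal on the left, and on the right the interferon list extends towards Ly6a and the cytotoxic list towards Ly6c2.

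Neither gene passed the threshold for training in all sorted cells, in either gate or below both gates, the 4 sets of cells in which training was fitted. Over all sorted cells, the mean score of Ly6a was -0.0161, 0.0526 and 0.0304 in trained samples and 0.00504 and -0.00635 in untrained samples. That of Ly6c2 was -0.105, 0.0182 and -0.0177 in trained and -0.00314 and -0.0466 in untrained samples. The groups overlapped for both genes. The difference, trained minus untrained, was 0.0229 ± 0.0255 (SE) for Ly6a (limma adjusted p = 0.84) and -0.0100 ± 0.0338 for Ly6c2 (limma adjusted p = 0.948). Of 2926 genes limma called 0 (0%) at an adjusted p of 0.05, and 7.72% had an unadjusted p under 0.05.

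Within the gates the same held. In CD8-gated cells the difference was 0.00374 ± 0.0780 for Ly6a (limma adjusted p = 0.991) and 0.0828 ± 0.0829 for Ly6c2 (adjusted p = 0.775). In CD4-gated cells it was -0.165 ± 0.188 for Ly6a and -0.0933 ± 0.0975 for Ly6c2 (limma adjusted p = 0.999 for each). The Ly6a value there rested on untrained sample 2, and without that sample it was 0.298, with the opposite sign. In cells below both gates it was 0.0171 ± 0.0465 for Ly6a (limma adjusted p = 0.895) and 0.0441 ± 0.0416 for Ly6c2 (adjusted p = 0.66). The Ly6c2 groups did not overlap there, with all 3 trained samples above both untrained samples. Training was not fitted in cells above both gates. There Ly6c2 averaged -0.220, 0.177 and 0.0444 in trained samples (8, 2 and 20 cells) and 0.267 and 0.999 in untrained samples (21 and 6 cells). Both untrained samples lay above all 3 trained samples, the opposite order to cells below both gates, and this was not tested. The share of all genes whose groups parted in either way is not given here. Neither order is therefore read as a result of training. The test called 0 of 2923 genes (0%) in CD8-gated cells, 0 (0%) in CD4-gated cells and 13 (0.445%) below both gates, against 9%, 2.43% and 12.9% of genes with an unadjusted p under 0.05. Ly6e differed by -0.0216 in all cells, 0.00873 in CD8-gated cells, -0.164 in CD4-gated cells and -0.0345 below both gates (limma adjusted p from 0.755 to 0.999).

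Whether the coreceptor split itself differed with training was also fitted. For Ly6a the CD8-gated minus CD4-gated difference averaged -0.363 ± 0.141 in trained samples (SD, n = 3) and -0.532 ± 0.563 in untrained samples (SD, n = 2). The change was 0.169 ± 0.177 (SE, limma adjusted p = 0.863), and it turned to -0.229 without untrained sample 2. For Ly6c2 the difference averaged 0.479 ± 0.0658 in trained samples and 0.303 ± 0.231 in untrained samples. That change was 0.176 ± 0.133 (SE, limma adjusted p = 0.799). Ly6e changed by 0.173 ± 0.173 (SE, limma adjusted p = 0.852). Limma called 0 of 2923 genes (0%), with 5.92% at an unadjusted p under 0.05.

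Shares of cells above 0 were compared by an exact permutation test, which no difference between 3 and 2 samples can pass here. Ly6a was above 0 in 34.8%, 37.9% and 31.5% of cells in trained samples and in 34.7% and 24.2% in untrained samples. Ly6c2 was above 0 in 27.3%, 35.5% and 25.6% of cells in trained samples and in 34.7% and 13.2% in untrained samples. Untrained sample 2 was the lowest for both genes. It also held 41 of the 51 myeloid-like cells, and 65.3% of its cells lay below both gates, against 36.1% to 40.3% in trained samples 1 and 2 and untrained sample 1 and 47% in trained sample 3. Over all cells the share was higher in trained than untrained samples by 5.30 points for Ly6a and 5.51 for Ly6c2. Without the myeloid-like cells it was higher by 3.86 and 4.48 points. The part of the cells below both gates in the low shares of untrained sample 2 was not tested. Below both gates Ly6a was above 0 in 20%, 20% and 13.9% of cells in trained samples and in 13.5% and 10.5% in untrained samples, without overlap (two-sided exact permutation p = 0.2, adjusted p = 0.8). The difference was 6.00 points, and 0.25 points when cells were counted above a limit of 0.25. The share of all genes that part in this way is not given here, so the order is not read as a result of training. The widest difference of 8 compared was for Ly6c2 in CD8-gated cells, 46.7% ± 10.5 in trained samples (SD, n = 3) and 33.3% ± 11.8 in untrained samples (SD, n = 2), or 13.3 percentage points (two-sided exact permutation p = 0.6, adjusted p = 0.8). With 10 splits of 2 and 3 samples and both tails counted, the smallest p this two-sided exact permutation test allows is 0.2. The Ly6a share below both gates reached that limit.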

How the data were processed

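CD3+ T cells of the ipsilateral hemisphere had been enriched on 37% Percoll, sorted into 384-well plates and sequenced by SORT-seq, per the labels' protocols. Reads were processed with Cell Ranger (version not given), per the submitters' processing notes. The deposited table of 2967 rows (2926 mouse genes, 41 spike-ins) by 692 cells is named as counts. Its deposited entries are scores: they ran from -2.12 to 3.74 with 0 whole numbers. How the scores were made is not given in the sources used here. A second table differed from the first 384 columns by at most 5e-10 and was not used. Well numbers recur between plates (221 of 331 are in more than 1 sample), so cells were assigned by the sample number in their names, and samples were numbered within a group in accession order.

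Scores were averaged per sample and class (numpy 2.4.6, pandas 2.3.3, Python 3.11.15). Training was fitted on those sample means in limma 3.58.1 (R 4.3.3). P-values were adjusted over all genes by Benjamini-Hochberg, and an adjusted p under 0.05 was called. Cd4, Cd8a and Cd8b1 were left out within gates. Shares were compared by exact permutation (scipy 1.17.1), and coding sequences were aligned with Biopython 1.88. The scripts were tested on simulated data. Genes named are the members, the measured Ly6 genes, the coreceptor genes, the 10 highest and 5 lowest r per member with 1 sign in all 5 samples, and up to 3 genes at each end of a list. The leading genes by partial r were named after their values were seen. Some genes the rule names are not reported here. The members and the gene lists were chosen with earlier results of these data known. Alternatives covered the gate cut, the summary and weight of a sample, the cells used, the measure of correlation and leaving out each sample.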

Additional observations from a re-analysis of the deposited data

How the results depend on the processing

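The gate differences, as means of the samples, kept their sign under every alternative run, but their size moved. The median cell gave -0.630 for Ly6a and 0.219 for Ly6c2. After each score was divided by the gene's SD they were -0.522 and 0.615. Leaving out 1 sample gave -0.505 to -0.306 for Ly6a and 0.380 to 0.476 for Ly6c2.

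The r of Ly6a with Ly6c2 was 0.259 as Spearman rho, 0.254 in CD4-gated cells, 0.0820 in cells below both gates (added after the data were seen), -0.00691 as partial r and -0.104 in T cell marker cells, and 0.139 to 0.181 without 1 sample. The median r of Ly6a with the interferon list was 0.133 as partial r, 0.193 in T cell marker cells, 0.119 below both gates and 0.244 to 0.279 without 1 sample. That of Ly6c2 with the cytotoxic list was 0.326 as Spearman rho, 0.118 as partial r, 0.118 in CD4-gated cells, 0.148 in T cell marker cells, 0.297 below both gates and 0.217 to 0.247 without 1 sample. Signs turned for Ly6a with the cytotoxic list (-0.0195 as partial r and -0.00374 in T cell marker cells). They turned for Ly6c2 with Cd8a (-0.0269 below both gates) and with Cd4 (0.0803 as Spearman rho, 0.0652 in CD8-gated cells, 0.0271 in CD4-gated cells and 0.148 below both gates). They turned for Ly6a with Cd8a (-0.0292 as partial r, -0.0518 in CD4-gated cells, -0.0575 in T cell marker cells and -0.0346 below both gates). Of the 10 leading partners of Ly6a, 6 stayed among the leading 10 by Spearman rho, 3 in CD8-gated cells, 6 in CD4-gated cells, 5 in T cell marker cells, 1 below both gates and 8 to 10 without 1 sample. For Ly6c2 the counts were 4, 4, 2, 4, 4 and 6 to 9. The causes were not tested.

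No member passed the threshold in any alternative of the training fits that was run, and the lowest adjusted p was 0.0562 (Ly6a in CD4-gated cells without untrained sample 1). Their signs were unstable. In all cells Ly6a was -0.0297 without myeloid-like cells and -0.114 in T cell marker cells, and Ly6c2 was 0.00649 with samples weighted by cells. In CD8-gated cells Ly6a was -0.0139 without myeloid-like cells, -0.175 in T cell marker cells and -0.205 with gates at 0.25. Ly6c2 there was -0.112 in T cell marker cells and -0.0412 with gates at 0.25. Below both gates Ly6c2 was -0.0308 with medians and Ly6a -0.0215 without myeloid-like cells. Leaving out 1 sample gave, for Ly6a, 0.00778 to 0.0421 in all cells, -0.0613 to 0.0688 in CD8-gated cells, -0.628 to 0.298 in CD4-gated cells, -0.00502 to 0.0545 below both gates and -0.229 to 0.567 for the change of the split. For Ly6c2 it gave -0.0366 to 0.0251, 0.00171 to 0.164, -0.175 to -0.0112, 0.0334 to 0.0527 and 0.0129 to 0.339 in the same order. The difference in shares of CD4-gated cells above 0 for Ly6a was 8.09 points with a limit of 0.25 and -10.3 to 9.02 points without 1 sample. For Ly6c2 it was -16.4 to 13.6 points in CD4-gated cells and -5.27 to 16.3 points in all cells without 1 sample.

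No paired analysis was possible because the labels give the groups no shared replicate numbers. The table gives no depth, so what depth limits cannot be stated. Trained sample 1 had 17 CD8-gated and 16 CD4-gated cells, and 3 samples against 2 cannot pass an exact permutation test.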

Other observations

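The list of genes of naive, memory and recirculating T cells held 21 measured genes. The r was higher with Ly6a in all 5 samples for 4 of them, and with Ly6c2 for 3. Over all genes these shares were 10.5% and 4.45%. An r above 0 in all 5 samples was seen for 16 of the 21 with Ly6a and for 13 with Ly6c2. Over all genes it was seen for 58.7% and 43.2%. Itgb7, an integrin chain of gut-homing lymphocytes, had the highest r with Ly6a (0.373, 0.30 to 0.502 over samples). Satb1, a chromatin organiser of T cells, had r = 0.285 with Ly6c2 (0.232 to 0.327) and -0.000313 with Ly6a. Itga4, an integrin chain of brain-homing lymphocytes, was below 0 in all 5 samples with both members (-0.153 with Ly6a and -0.142 with Ly6c2). Given the cell's mean score, its partial r was -0.0422 with Ly6a and -0.0473 with Ly6c2.

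Among 10 measured helper and regulatory genes, 9 had an r with Ly6a above 0 in all 5 samples and 3 with Ly6c2, against 58.7% and 43.2% of all genes. The members were chosen on the coreceptor split, and these r across all cells may restate that choice. Tnfrsf18, the receptor GITR, led for both members (0.273 and 0.156), with partial r of 0.107 and 0.00659. Given the cell's mean score, 2 of the 10 were above and 1 below 0 in all 5 samples with Ly6a, against 7.01% and 7.62% of all genes. With Ly6c2, 4 of the 10 were then below 0 in all 5 samples, against 10.1% of all genes, and the transcription factor Maf (-0.188) and Nrp1 (-0.158) were the lowest named. The 4 measured GPI-anchored lymphocyte antigens were above 0 with both members in all 5 samples, beside the same shares of all genes. Cd52 had r = 0.356 with Ly6a and 0.362 with Ly6c2, and Thy1 had 0.344 and 0.343. Of the 5 measured genes of GPI anchor synthesis, 5 with Ly6a and 2 with Ly6c2 were above 0 in all 5 samples, against 58.7% and 43.2% of all genes. Given the cell's mean score 0 were with either member, against 7.01% of all genes.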
